A study of Mus musculus with 8 samples.

Results

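Arginine enters cells through the cationic amino acid carriers, and inside the cell it is oxidised by the nitric oxide synthases or passed on through ornithine to the polyamines. The genes described here lie along that route in the mouse uterus, namely the carriers Slc7a1, Slc7a2 and Slc7a3, the nitric oxide synthase Nos2, and Odc1, Azin1, Srm and Sat1 of the polyamine pathway. They are 8 genes of a set of 10, out of the 24963 genes in the expression table. The set was put together because Slc7a2 was lower in all Nr2f2 d/d uteri, so the set was chosen by the values of Slc7a2, which are given below as a description with no test.

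Whole uteri of gestation day 3.5 (GD3.5) were profiled by RNA sequencing in 4 Nr2f2 f/f and 4 Nr2f2 d/d mice, labelled as strain C57B6/J. Nr2f2 f/f mice carried the floxed Nr2f2 alleles without Cre and served as controls, and their labels give the genotype as WT. Nr2f2 d/d mice carried the same floxed alleles together with Cre knocked into 1 Pgr allele, so that Nr2f2 was deleted in cells that express the progesterone receptor and not in the others, and they had 1 Pgr allele without Cre. The labels give an age of 8 weeks at mating, the study describes mating to vasectomized males, and the uteri therefore held no embryos.

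Members of the cationic carrier family move arginine, lysine and ornithine across the plasma membrane. Ornithine decarboxylase turns ornithine into putrescine, and spermidine synthase extends putrescine to spermidine. Polyamines bind nucleic acids and are needed by growing cells, and the uterus that prepares for implantation is known for active polyamine synthesis. Nitric oxide synthases use the same arginine to make nitric oxide, which relaxes vascular smooth muscle through soluble guanylate cyclase.

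Values are FPKM (fragments per kilobase of transcript, scaled to the mapped fragments of a library), and differences are log2 fold changes of FPKM + 0.5, Nr2f2 d/d minus Nr2f2 f/f, with the standard error (SE). Library totals worked out from the steps between low FPKM values lay between 61300000 and 92550000 fragments. The targeted gene Nr2f2 was 24.1 ± 1.80 FPKM in Nr2f2 f/f and 8.93 ± 1.36 FPKM in Nr2f2 d/d (n = 4 each, SD), which is a difference of -1.39 (SE 0.118, limma adjusted p = 0.00549), and Pgr was 19.3 ± 6.30 and 26.4 ± 5.67 FPKM (adjusted p = 0.318). Replicate 2 of Nr2f2 f/f and replicate 3 of Nr2f2 d/d were least like the others, with median correlations of 0.933 and 0.945 against 0.959 to 0.974 for the other 6 libraries. For each of the 8 genes the log2 fold change is also given without both of these libraries.

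Among the 8 genes, Slc7a2 was the one with the wide gap between the genotypes. The carriers Slc7a1 and Slc7a3, the synthase Nos2 and the polyamine genes Odc1, Azin1, Srm and Sat1 overlapped between the genotypes. Odc1 and Nos2 overlapped only through replicate 4 of Nr2f2 d/d, and Srm only through the least alike libraries. Apart from Slc7a2, 7 of the 8 genes were tested and 0 passed an adjusted p under 0.05 in limma, against 2.62% of the 14323 genes tested (1.09% higher and 1.53% lower in Nr2f2 d/d). At an unadjusted p under 0.05 the count was also 0, against 21.2% of all genes tested, and so it was at the looser threshold that adds a fold change of at least 1.4, which 8.8% of all genes tested passed. Groups without overlap were found for 0 of the 7 in either direction, where 5.49% of all genes tested were higher and 9.91% lower in this way. The median log2 fold change of the 7 was 0.11, and that of all genes tested was -0.02.

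**Figure D1:**
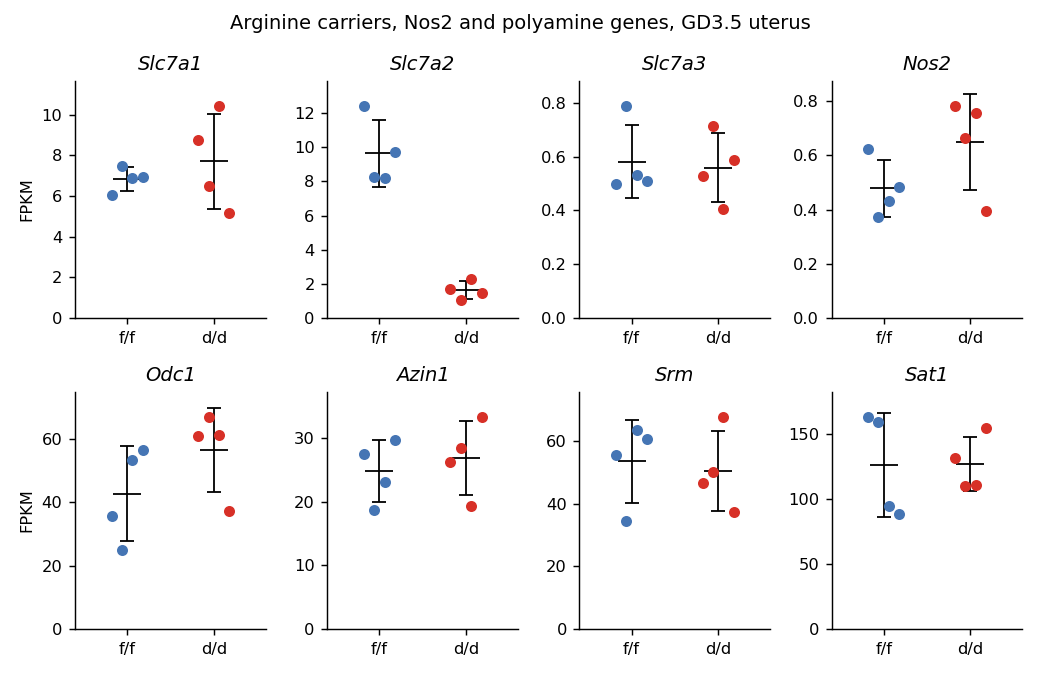
FPKM of the 8 genes in each uterus (points), with the group mean and SD (bars, n = 4), for Nr2f2 f/f on the left and Nr2f2 d/d on the right of each panel, each vertical axis starting at 0. The points of Slc7a2 do not overlap between the genotypes, and those of the other 7 genes do.

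Slc7a2 encodes CAT2, a carrier whose splice forms differ in their affinity for arginine. In Nr2f2 f/f uteri it stood at 12.4, 8.26, 8.21 and 9.70 FPKM in replicates 1 to 4, and in Nr2f2 d/d uteri at 1.71, 1.06, 2.32 and 1.49 FPKM. All 4 Nr2f2 d/d libraries lay below all 4 Nr2f2 f/f libraries, and even the highest of them stayed well under the lowest control. The means were 9.64 ± 1.96 and 1.64 ± 0.525 FPKM, so the Nr2f2 d/d mean was 17.1% of the Nr2f2 f/f mean. On the log2 scale the difference was -2.26 (SE 0.199), and 10 of the 14323 genes tested had a lower one. Without replicate 2 of Nr2f2 f/f and replicate 3 of Nr2f2 d/d it was -2.46. In whole tissue, fewer cells of a type and less RNA per cell cannot be told apart, and this holds for each gene below.

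The gene lies on chromosome 8 of mm10 (chr8:40862396-40922308, plus strand, GENCODE vM21), with 5 annotated transcripts, and the table gives 1 value for the whole gene. Its splice forms are therefore not told apart here. The annotation places 7.0% of the exon bases of Slc7a2 opposite exons of Gm26584, and the library kit does not mark strand.

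Slc7a1 encodes CAT1, the carrier that most cell types use for basal arginine uptake (chr5:148327410-148399904). It was 6.05, 7.47, 6.87 and 6.93 FPKM in Nr2f2 f/f and 8.77, 6.49, 10.4 and 5.16 FPKM in Nr2f2 d/d. The Nr2f2 d/d uteri spread widely around the tight control values, with replicates 1 and 3 above all controls and replicate 4 below them. The log2 fold change was 0.12 (SE 0.195, 95% interval -0.33 to 0.57, limma adjusted p = 0.761), and it was -0.03 without replicate 3 of Nr2f2 d/d and 0.01 without both least alike libraries.

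Slc7a3 encodes CAT3, the family member best known from the brain (chrX:101079210-101086020). It was low throughout, at 0.498, 0.786, 0.531 and 0.511 FPKM in Nr2f2 f/f and 0.529, 0.714, 0.406 and 0.588 FPKM in Nr2f2 d/d, or about 119 to 202 fragments per library. The groups overlapped, and the high control was replicate 2. The log2 fold change was -0.03 (SE 0.138, 95% interval -0.35 to 0.29, limma adjusted p = 0.922), and it was 0.06 without replicate 2 of Nr2f2 f/f and 0.13 without both least alike libraries.

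FPKM are scaled to gene length, so the carriers can be set beside each other, although the gene lengths used are not given. Slc7a2 made up 65.4%, 50.0%, 52.6% and 56.6% of the summed FPKM of the 3 carriers in the Nr2f2 f/f uteri and 15.5%, 12.8%, 17.7% and 20.6% in the Nr2f2 d/d uteri. By FPKM the highest carrier was Slc7a2 in each control, with Slc7a1 close behind it in replicate 2, and Slc7a1 in each Nr2f2 d/d uterus. The summed carrier level was 17.1 ± 1.41 FPKM in Nr2f2 f/f and 9.91 ± 2.67 FPKM in Nr2f2 d/d. These sums contain Slc7a2, which chose the set, and are descriptions.

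**Figure D2:**
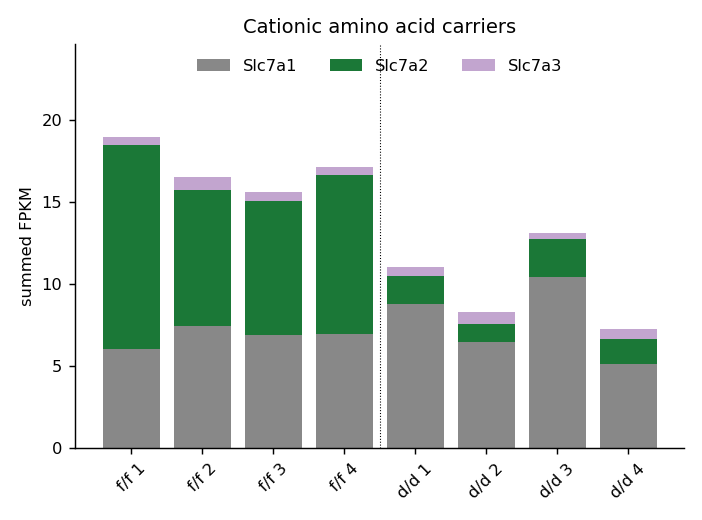
Summed FPKM per uterus of the carriers Slc7a1, Slc7a2 and Slc7a3, stacked by gene, for replicates 1 to 4 of Nr2f2 f/f and of Nr2f2 d/d, with the genotypes parted by the dotted line. Slc7a2 takes 50.0% to 65.4% of the carrier sum in Nr2f2 f/f and 12.8% to 20.6% in Nr2f2 d/d.

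**Figure D3:**
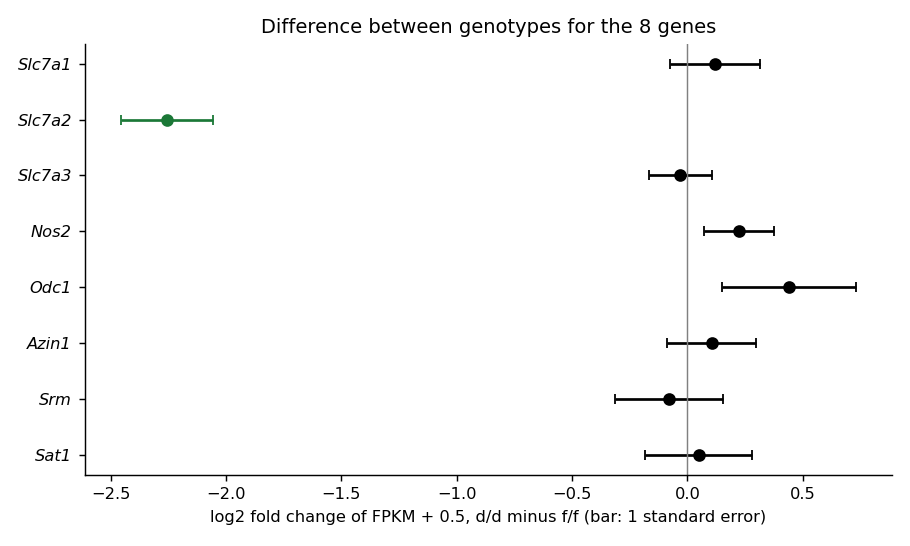
Log2 fold change of FPKM + 0.5, Nr2f2 d/d minus Nr2f2 f/f, for each of the 8 genes (points) with 1 standard error to either side (bars). Slc7a2, in green, lies at -2.26 and chose the set, and the other 7 genes lie between -0.08 and 0.44.

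Nos2, the inducible nitric oxide synthase of activated immune cells (chr11:78920787-78960254), was 0.622, 0.374, 0.433 and 0.484 FPKM in Nr2f2 f/f and 0.780, 0.662, 0.756 and 0.395 FPKM in Nr2f2 d/d. Of the Nr2f2 d/d uteri, 3 lay above all controls and replicate 4 lay among them. Nos2 differed by 0.22 on the log2 scale (SE 0.151, 95% interval -0.12 to 0.57, limma adjusted p = 0.425), by 0.34 without replicate 4 of Nr2f2 d/d (adjusted p = 0.219) and by 0.12 without both least alike libraries. Its Nr2f2 f/f mean of 0.478 FPKM was under the minimum mean of 0.5 FPKM over all libraries, so Nos2 entered the test through the Nr2f2 d/d libraries. Activated macrophages are a known source of Nos2. Of 6 macrophage markers (Adgre1, Cd68, Csf1r, Mrc1, Lyz2 and Cd14) 0 passed the adjusted threshold in limma. At an unadjusted p under 0.05 the count was 1, against 21.2% of all genes tested. The 6 markers summed to 154 to 291 FPKM in Nr2f2 f/f and 256 to 471 FPKM in Nr2f2 d/d, most of it Lyz2, while Mrc1 was 6.68 and 5.54 FPKM on average. Their part in the Nos2 values was not tested.

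Odc1, ornithine decarboxylase and the rate-limiting enzyme of polyamine synthesis (chr12:17544794-17551505), was 35.8, 24.8, 53.4 and 56.6 FPKM in Nr2f2 f/f and 60.8, 66.9, 61.2 and 37.2 FPKM in Nr2f2 d/d. The controls split, with replicates 1 and 2 low and replicates 3 and 4 high, and 3 Nr2f2 d/d uteri lay above all controls. Odc1 differed by 0.44 on the log2 scale (SE 0.289, 95% interval -0.22 to 1.11, limma adjusted p = 0.411), and it was 0.21 to 0.63 with 1 library left out (lowest without replicate 2 of Nr2f2 f/f, highest without replicate 4 of Nr2f2 d/d) and 0.16 without both least alike libraries.

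Azin1, antizyme inhibitor 1, which frees ornithine decarboxylase from its antizymes (chr15:38487427-38519266), was 27.6, 18.8, 23.2 and 29.7 FPKM in Nr2f2 f/f and 26.2, 28.5, 19.3 and 33.3 FPKM in Nr2f2 d/d. The ranges almost coincided, and the lowest value of each genotype came from the library least like the others. For Azin1 the log2 fold change was 0.11 (SE 0.192, 95% interval -0.34 to 0.55, limma adjusted p = 0.791). It was -0.02 without replicate 2 of Nr2f2 f/f, 0.25 without replicate 3 of Nr2f2 d/d and 0.13 without both.

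Srm, spermidine synthase (chr4:148591503-148594993), was 55.5, 34.4, 63.7 and 60.6 FPKM in Nr2f2 f/f and 46.5, 50.2, 67.7 and 37.3 FPKM in Nr2f2 d/d. Both genotypes spanned nearly the same range, which rested on the low replicate 2 of Nr2f2 f/f and the high replicate 3 of Nr2f2 d/d, and the other 3 Nr2f2 d/d uteri lay below the other 3 controls. For Srm the log2 fold change was -0.08 (SE 0.234, 95% interval -0.62 to 0.46, limma adjusted p = 0.876). It was -0.28 without replicate 2 of Nr2f2 f/f, -0.23 without replicate 3 of Nr2f2 d/d and -0.43 without both (adjusted p = 0.108). Set against Odc1 in the same uterus, Srm was 1.55, 1.39, 1.19 and 1.07 times as abundant in Nr2f2 f/f and 0.764, 0.751, 1.11 and 1.00 times in Nr2f2 d/d.

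Sat1, which acetylates spermidine and spermine and so opens their breakdown and export (chrX:155213132-155216449), was the most abundant of the 8 transcripts in every uterus. It was 163, 159, 94.4 and 88.4 FPKM in Nr2f2 f/f and 132, 110.1, 111 and 154 FPKM in Nr2f2 d/d. The control values formed a high pair, replicates 1 and 2, and a low pair, replicates 3 and 4, and the Nr2f2 d/d values fell between them. For Sat1 the log2 fold change was 0.05 (SE 0.231, 95% interval -0.48 to 0.58, limma adjusted p = 0.923), and it was 0.24 without both least alike libraries. The high pair of Sat1 was the low pair of Odc1, so the ratio of Sat1 to Odc1 was 4.55, 6.40, 1.77 and 1.56 in Nr2f2 f/f and 2.17, 1.65, 1.81 and 4.14 in Nr2f2 d/d.

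In Nr2f2 f/f the mean levels ran from Sat1 (126 FPKM) through Srm (53.6), Odc1 (42.7), Azin1 (24.8), Slc7a2 (9.64), Slc7a1 (6.83) and Slc7a3 (0.582) to Nos2 (0.478). Along that order the ranges of the neighbours Srm and Odc1, Odc1 and Azin1, and Slc7a3 and Nos2 overlapped. In Nr2f2 d/d the order was Sat1 (127 FPKM), Odc1 (56.5), Srm (50.4), Azin1 (26.8), Slc7a1 (7.70), Slc7a2 (1.64), Nos2 (0.648) and Slc7a3 (0.559), with Slc7a2 below Slc7a1. There the ranges of Odc1 and Srm and of Nos2 and Slc7a3 overlapped.

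RefSeq promoter windows (GRCm38.p6) were matched for 3 of the 8 genes, Slc7a1 with 2 starts, Odc1 and Sat1, and the 250 bases before each start were searched on both strands for AGGTCA and GGGTCA, the half-sites that NR2F2 is known to bind, and for CACGTG, the E-box bound by MYC. Among them only Sat1 held a match, a GGGTCA that begins 212 bases before the start. Of 32851 windows of the same length, 14.0% held AGGTCA, 11.6% held GGGTCA, 23.8% held either of these half-sites and 6.02% held CACGTG. The window of Sat1 is shown because it is the member promoter with a match (chrX:155216450-155216699, minus strand, the match in capitals), although Sat1 itself did not pass the test:
Sat1: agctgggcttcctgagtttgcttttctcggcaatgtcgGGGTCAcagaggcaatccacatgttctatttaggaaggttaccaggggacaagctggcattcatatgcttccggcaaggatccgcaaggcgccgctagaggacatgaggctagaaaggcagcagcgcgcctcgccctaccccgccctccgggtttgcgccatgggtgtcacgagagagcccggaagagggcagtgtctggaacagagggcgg

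The 5 genes whose profiles over the 8 libraries were most like that of Slc7a2 were Col18a1, Sned1, Fn1, Ednrb and Trib2, by the root mean square difference of centred log2 values. Col18a1, Sned1 and Fn1 encode proteins of the extracellular matrix, Ednrb an endothelin receptor and Trib2 a pseudokinase. Their root mean square differences from Slc7a2 were 0.413, 0.413, 0.469, 0.492 and 0.507, while those of the other 7 genes ran from 1.14 for Srm to 1.43 for Odc1. Because Slc7a2 itself fell, any gene without a genotype difference is far from it by this measure. The contrast is therefore no result about the 7 genes. The 5 nearest genes were chosen for their likeness, and their log2 fold changes, from -1.49 for Col18a1 to -2.33 for Ednrb, are descriptions.

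Beyond these, 71 further genes of arginine, polyamine, urea cycle, nitric oxide and creatine metabolism were read, of which 54 were abundant enough to test. In limma 0 were higher and 2 were lower in Nr2f2 d/d at an adjusted p under 0.05, namely Nos3 and Gucy1b1 of the nitric oxide list, against 1.09% and 1.53% of all genes. At an unadjusted p under 0.05, 5 were higher and 5 were lower, against 8.66% and 12.5% of all genes. Groups did not overlap for 2 in the higher direction (Slc6a8 and Ckmt1) and for 4 in the lower (Asl, Prodh, Nos3 and Gucy1b1), against 5.49% and 9.91% of all genes. The median log2 fold change of the 54 was -0.02, as it was for all genes.

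**Figure D4:**
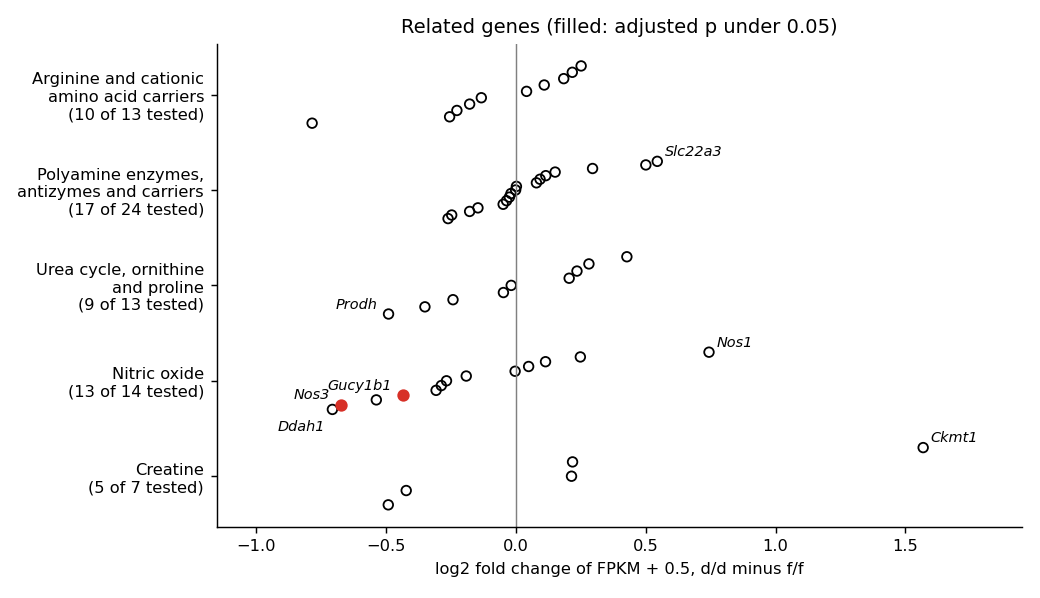
Log2 fold change of FPKM + 0.5, Nr2f2 d/d minus Nr2f2 f/f, of the 54 related genes tested (points), in 5 lists, with filled points at a limma adjusted p under 0.05. Nos3 and Gucy1b1 are filled, Ckmt1 lies farthest to the right at 1.57, and most others lie within 0.5 of 0.

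Of the other carriers of cationic and large neutral amino acids, 10 of 13 were tested in limma and 0 passed, also at an unadjusted p under 0.05. Slc3a2, the heavy chain that Slc7a5, Slc7a6, Slc7a7 and Slc7a8 need at the cell surface, was 34.4 ± 2.98 and 39.3 ± 5.49 FPKM (adjusted p = 0.367). Slc7a5 and Slc7a8, which exchange large neutral amino acids, had log2 fold changes of -0.13 and 0.11. The median of the 10 was -0.05 on the log2 scale, and the lowest was -0.78 (SE 0.522, adjusted p = 0.419) for Slc6a14, an epithelial carrier of neutral and cationic amino acids.

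In the wider polyamine list 17 of 24 genes were tested in limma, with a median log2 fold change of 0.00. Of these 0 passed (1 at an unadjusted p under 0.05, against 21.2% of all genes). Eif5a, the translation factor that carries the spermidine-derived amino acid hypusine, was 199 ± 35.5 and 215 ± 37.2 FPKM. Mat2a, which makes S-adenosylmethionine, and Oaz2, an antizyme that blocks ornithine decarboxylase, had log2 fold changes of -0.02 and -0.04. Slc22a3, an organic cation carrier, was past the looser threshold at 0.499 ± 0.0979 and 0.988 ± 0.365 FPKM (adjusted p = 0.160), and like Nos2 it entered the test through the Nr2f2 d/d libraries. Oaz1 was listed at 0.059 to 0.201 FPKM and Amd1 at 0 to 0.005 FPKM in libraries with 607 to 1081 FPKM of Actb. Cells in general use both genes, and the annotation names 1 processed pseudogene after Oaz1 and 5 after Amd, so these values say only that the genes are listed near 0.

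Around ornithine and the urea cycle 9 of 13 genes were tested in limma and 0 passed. At an unadjusted p under 0.05, 1 was higher and 2 were lower, against 8.66% and 12.5% of all genes. Asl, argininosuccinate lyase, which releases arginine, was 56.3 ± 11.7 and 43.5 ± 2.44 FPKM without overlap (adjusted p = 0.195). Prodh, which breaks down proline, did not overlap either, at -0.49 on the log2 scale (adjusted p = 0.0747). Oat, which links ornithine to glutamate, and Glul, glutamine synthetase, were at 0.24 and -0.24 on the log2 scale with overlapping groups. Ass1, the partner of Asl in making arginine from citrulline, was listed at 0 to 0.019 FPKM. As for Oaz1 and Amd1, this says only that the gene is listed near 0.

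Both genes that passed were in the nitric oxide list, of which 13 of 14 were tested at a median log2 fold change of -0.27. Nos3, the endothelial nitric oxide synthase (chr5:24364810-24384474), was 11.6, 8.64, 9.21 and 9.05 FPKM in Nr2f2 f/f and 4.82, 5.75, 6.67 and 6.14 FPKM in Nr2f2 d/d. The groups did not overlap, and the log2 fold change was -0.67 (SE 0.122, limma adjusted p = 0.0335). Leaving out 1 of the 8 libraries in turn gave adjusted p values of 0.0412 to 0.105, under 0.05 only without replicate 2 of Nr2f2 f/f (0.0415) or replicate 3 of Nr2f2 d/d (0.0412). The call of Nos3 was also lost with a block for the replicate numbers (limma adjusted p = 0.160 by title number and 0.121 by description number). In the annotation 32.3% of its exon bases lie opposite Atg9b and Gm15587, and Atg9b ranged from 0.600 to 37.0 FPKM in Nr2f2 f/f and from 0.375 to 25.5 FPKM in Nr2f2 d/d.

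Gucy1b1, the beta subunit of the soluble guanylate cyclase that nitric oxide activates (chr3:82032006-82074689), was 5.52, 5.53, 4.50 and 5.63 FPKM in Nr2f2 f/f and 3.86, 3.50, 3.96 and 3.78 FPKM in Nr2f2 d/d. Its log2 fold change was -0.44 (SE 0.0899, limma adjusted p = 0.0481). That call stood just inside the threshold and was kept without replicate 3 of Nr2f2 f/f (adjusted p = 0.0429) and lost without any other library (0.0730 to 0.142). It was also lost without both least alike libraries (0.0816), with no filter on low values (0.0730), median-ratio scaling (0.0592), quantile normalization (0.0571) and robust eBayes (0.0519), and with a block for the replicate numbers.

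The other nitric oxide genes tested did not pass, and Gucy1a2, an alpha subunit of the same cyclase at 0.535 ± 0.0594 and 0.300 ± 0.0298 FPKM, was under the filter and passed, lower in Nr2f2 d/d, where no filter was set. Nos1, the neuronal synthase, was 0.444, 0.765, 0.928 and 0.438 FPKM in Nr2f2 f/f and 1.87, 1.24, 0.895 and 1.69 FPKM in Nr2f2 d/d (log2 fold change 0.74, limma adjusted p = 0.104). It overlapped through replicate 3 of Nr2f2 d/d alone, without which the log2 fold change was 0.89 (adjusted p = 0.0768). Ddah1, which clears the methylarginines that inhibit these synthases, was 6.63, 2.89, 5.76 and 6.42 FPKM in Nr2f2 f/f and 3.31, 3.31, 2.20 and 3.28 FPKM in Nr2f2 d/d. It overlapped through replicate 2 of Nr2f2 f/f alone. Its log2 fold change was -0.71 (adjusted p = 0.164), and it was -0.95 (adjusted p = 0.0272) without that library. Ddah2 was at -0.19 on the log2 scale, and Pts and Qdpr, which make and recycle the cofactor tetrahydrobiopterin, at 0.25 and 0.12.

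Markers of blood vessel endothelium moved with Nos3. All 6 (Pecam1, Cdh5, Kdr, Emcn, Tek and Tie1) were lower in every Nr2f2 d/d uterus than in every control, as were 9.91% of all genes tested. In limma 4 of the 6 passed the adjusted threshold (Pecam1, Cdh5, Kdr and Emcn), against 1.53% of all genes called lower. The 6 markers summed to 183 to 254 FPKM in Nr2f2 f/f and 109 to 137 FPKM in Nr2f2 d/d, and none was at 0 in any library. Their median log2 fold change was -0.72, beside -0.67 for Nos3 and -0.44 for Gucy1b1. Their part in the values of Nos3, Gucy1b1 or Slc7a2 was not tested.

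**Figure D5:**
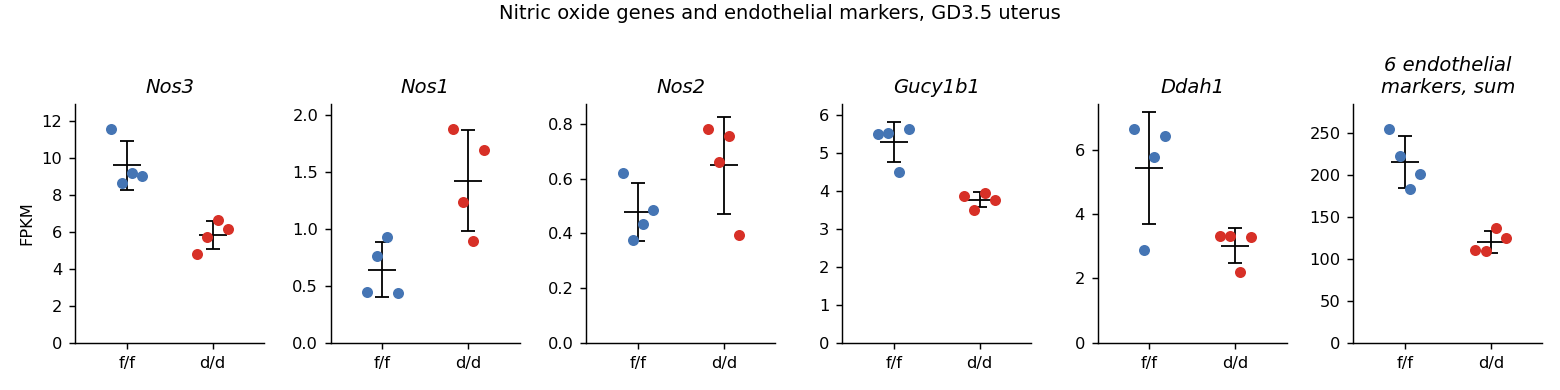
FPKM of Nos3, Nos1, Nos2, Gucy1b1 and Ddah1 and the summed FPKM of 6 endothelial markers in each uterus (points), with group mean and SD (bars, n = 4), each axis starting at 0. Nos3, Gucy1b1 and the endothelial sum do not overlap between Nr2f2 f/f and Nr2f2 d/d, with sums of 183 to 254 and 109 to 137 FPKM.

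Of the 7 genes of the creatine list, 5 were tested in limma and 0 passed (2 at an unadjusted p under 0.05, against 21.2% of all genes). Ckmt1, the mitochondrial creatine kinase of epithelia, was 7.98, 5.95, 30.4 and 33.5 FPKM in Nr2f2 f/f, against a mean of 45.5 ± 3.38 FPKM in Nr2f2 d/d without overlap. The controls split into the same pairs as for Sat1 and Odc1, and the adjusted p was 0.153 at a log2 fold change of 1.57. Slc6a8, the creatine carrier, was 8.27 ± 0.430 and 9.69 ± 0.735 FPKM (adjusted p = 0.166). Gatm, which makes the creatine precursor from arginine, was 20.2 ± 6.04 and 13.9 ± 2.24 FPKM (adjusted p = 0.246), and Ckb, the cytosolic kinase, had a log2 fold change of 0.22. Gamt was 11.6, 5.78, 16.3 and 17.4 FPKM in Nr2f2 f/f and 7.94 to 9.39 FPKM in Nr2f2 d/d (limma adjusted p = 0.457). It overlapped through replicate 2 of Nr2f2 f/f alone and passed the adjusted threshold, lower in Nr2f2 d/d, without that library.

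Marker lists of neutrophils, epithelium, stroma, smooth muscle and adipocytes were also read. The 6 neutrophil markers, of which 4 were tested, 0 passed and Ngp was listed at 0 in at least 1 library, summed to 3.30 to 20.8 FPKM in Nr2f2 f/f and 18.1 to 39.7 FPKM in Nr2f2 d/d. S100a8 and S100a9 made up most of that difference, while Retnlg of the same list was 2.38 ± 1.72 and 0.536 ± 0.268 FPKM (adjusted p = 0.131). Those of epithelium summed to 584 to 603 FPKM in Nr2f2 f/f and 616 to 825 FPKM in Nr2f2 d/d, with the widest difference for Krt19 (65.6 and 164 FPKM on average, adjusted p = 0.0559), and those of stroma to 1078 to 1307 and 1527 to 2379 FPKM. Smooth muscle markers gave 1225 to 1741 and 985 to 2449 FPKM, and adipocyte markers 1.86 to 13.7 and 2.63 to 7.88 FPKM. Within the stroma list the markers went both ways, with Col1a1 at 175 ± 48.0 and 608 ± 367 FPKM, Vim at 379.5 ± 93.1 and 237 ± 44.3 FPKM, and Pdgfra and Hoxa11 at -0.20 and -0.18 on the log2 scale. Among these lists Dcn of the stroma list passed the adjusted threshold, higher in Nr2f2 d/d at a log2 fold change of 0.79. Their part in the values of the members was not tested.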

How the data were processed

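Total RNA of uterine tissue from 8 mice was sequenced from TruSeq RNA v2 libraries, 4 per genotype, and groups were taken from the sample titles. The deposited values are FPKM per gene and library. The submitters' processing notes name mm10, cutadapt 1.12, STAR 2.5.2b, Subread with featureCounts 1.5.0-p1, and Cufflinks 2.0.2, and per the study the authors trimmed, aligned and counted paired reads per gene with the tools of those names. The strand setting, the gene annotation and the role of Cufflinks are not given in the sources used here. FPKM are relative to a library's total, and genes that overlap on opposite strands can share fragments.

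Averaged over all 8 libraries, a gene needed 0.5 FPKM or more to enter the test, which ran on log2(FPKM + 0.5) with limma 3.58.1 (lmFit and eBayes with trend, two-sided) in R 4.3.3, and p values were adjusted by Benjamini-Hochberg over all 14323 genes. A fold change on this scale understates that of low genes. Single genes were also compared by exact permutation over libraries. The samples are separate mice by the study's description, with no litter or batch given. The looser threshold is that of the study's methods. The limma step was tested on simulated data. Figures and summaries were made in Python 3.11.15.

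Library totals were found as the total at which the FPKM of short genes with 1 exon are whole fragments, within 0.1, and 96.8% to 100.0% of values were whole. Fragments per member, with GENCODE vM21 exon lengths, ran from 101 (Nos2) to 38804 (Sat1).

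The members and lists were chosen with earlier results of these data known. Some genes of the set and of the lists are not reported here, and counts leave them out. Genes named are the 8 members reported, Nr2f2, Pgr, related genes past the looser threshold, up to 3 of the highest mean per list, and the 5 genes most like Slc7a2. Genes with groups that did not overlap, Slc6a14, Gucy1b1, Gucy1a2, Gamt, Ass1, Oaz1, Amd1, Atg9b, Dcn and the markers given with values were named after their values were seen. Alternatives were another added value (0.1 or 1), no filter or a minimum mean of 1 FPKM, quantile normalization or median-ratio scaling, robust eBayes or none of its trend, a replicate block, each library left out, and, chosen after seeing the data, both least alike libraries left out.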

Additional observations from a re-analysis of the deposited data

Results flagged for a closer look

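Of 34 groups of 4 libraries read for 17 genes, 4 held a library far from the other 3, where chance alone gives about 1 in 20. In Nr2f2 f/f, Slc7a3 was highest in replicate 2 at 0.786 FPKM, and Gucy1b1 was lowest in replicate 3 at 4.495 FPKM, the library without which Gucy1b1 kept its call. In Nr2f2 d/d, Ddah1 was lowest in replicate 3 at 2.2 FPKM, and Nr2f2 itself was lowest in the same replicate at 6.898 FPKM. Replicate 2 of Nr2f2 f/f and replicate 3 of Nr2f2 d/d are the libraries least like the rest.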

How the results depend on the processing

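The log2 fold change of Slc7a2 lay between -2.51 and -2.01 in all settings and between -2.40 and -2.11 when 1 library was left out. Members other than Slc7a2 called higher or lower by limma, or past the looser threshold, numbered 0 in all settings. Neither numbering of the replicates is stated to pair the mice, and the correlations cannot exclude pairing. Correlations of deviations by title number were -0.204, -0.172, 0.045 and -0.04, and those by description number -0.204, 0.149 and -0.04. By title number 0 of 8 libraries correlated best with its own number, and description numbers were not read in this way. The replicate block by title number called 1 gene of all tested and the block by description number 0, against 375. Numbers in the descriptions differ from those of the titles, and that block drops replicate 2 of Nr2f2 f/f and replicate 3 of Nr2f2 d/d, which have no partner. Related genes called lower, 2 as reported, numbered 1 with median-ratio scaling, 1 with quantile normalization, 1 with robust eBayes, 0 with either replicate block, and 0 to 3 with 1 library left out. The 3 were Ddah1, Gamt and Nos3, without replicate 2 of Nr2f2 f/f. The count stayed 2 with other genes in it for no filter (Nos3 and Gucy1a2) and without both least alike libraries (Nos3 and Ddah1). All-gene calls were 42 to 348 with 1 library left out and 444 without both least alike libraries.

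Small differences changed sign. Slc7a3 was at 0.129 with the block by description number and at 0.129 without both least alike libraries, and from -0.098 to 0.056 with 1 library left out. Sat1 was at -0.078 with quantile normalization and from -0.102 to 0.191 with 1 library left out. Over the same omissions Slc7a1 ran from -0.03 to 0.285, Azin1 from -0.018 to 0.252 and Srm from -0.277 to 0.052. Srm moved most, to -0.428 both with the block by description number (adjusted p = 0.157) and without both least alike libraries (adjusted p = 0.108). The cause was not tested. Slc7a3 and Nos2 are not tested at a mean of at least 1 FPKM. Depth limits Nos2 and Slc7a3 most, at 101 and 119 fragments in the library where each has fewest, and these counts cover counting error only.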
